A study of Mus musculus with 12 samples.

Results

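The genes of ISG15 conjugation and the interferon-induced PARPs were followed in J774A.1 cells, a mouse macrophage line, by the rows of the count tables that carry their gene names. The 10 members are Isg15, Uba7, Ube2l6, Herc6, Parp9, Dtx3l, Parp14, Parp10, Parp11 and Parp12, of 17544 genes listed for unstimulated cells and 17874 after LPS. All 10 passed the filter on low counts in each comparison. RNA-seq was performed on 12 libraries in 4 groups of 3, WT and ACAT1 KO cells that were either unstimulated or treated for 2 hours with LPS at 100 ng/ml. LPS, lipopolysaccharide, is a ligand of TLR4. Both genotypes were transfected with the pSpCas9-2A-GFP vector, which carried no guide RNA for WT and a guide to an exon of Acat1 for ACAT1 KO, and cells sorted on GFP were grown out as clonal lines. ACAT1 is a mitochondrial acetyl-CoA acetyltransferase, and the study examined its part in the regulation of myeloid cells. The 3 libraries of a genotype are different lines of 1 parental cell line, so p-values measure the spread between such lines.

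ISG15 is a ubiquitin-like protein that interferons induce and that is joined to lysines of other proteins. Uba7 activates it, Ube2l6 carries it, and Herc6 is the main ligase that transfers it in the mouse, while Usp18 removes it. The PARPs of this group are ADP-ribosyltransferases and related proteins of the antiviral response. PARP9 forms a complex with the ubiquitin ligase DTX3L.

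Total counts ranged from 56948593 to 167280149 per library. Acat1 was lower in every ACAT1 KO library than in every WT library, with a mean of 26.8 ± 1.82 CPM (a gene's counts scaled to the size of its library, SD, n = 3) against 98.8 ± 15.6 CPM (SD, n = 3) before LPS and 19.1 ± 0.732 CPM (SD, n = 3) against 81.9 ± 15.5 CPM (SD, n = 3) after it. The 10 macrophage markers, all tested, summed to 9721 to 12522 CPM in the unstimulated and 10188 to 12205 CPM in the LPS libraries. Among them Adgre1 moved as several members did, at 64.8, 82.4 and 74.7 CPM in unstimulated WT, 44.7, 45.5 and 37.7 CPM in unstimulated ACAT1 KO, 142, 165 and 166 CPM in LPS WT and 164, 159 and 161 CPM in LPS ACAT1 KO libraries. Its log2 fold change between unstimulated genotypes was -0.78 (adjusted p = 0.0368) and its interaction 0.83 (adjusted p = 0.0423, and 0.00708 with the line as a block). After LPS Cd14, Itgam and Spi1 were higher in ACAT1 KO cells, by 0.40, 0.48 and 0.26 on the log2 scale. The part of these markers in the members' values was not tested. Cd3e, Cd3d, Cd8a, Cd79b, Ms4a1, Pax5, Flt3, Siglech, Epcam, Krt18, Krt8, Col1a1 and Col1a2, markers of other cells, were not among the genes tested in all libraries. The 1 remaining epithelial and fibroblast marker, Pdgfra, had 1.19 to 1.67 CPM in unstimulated WT, 1.14 to 1.36 CPM in unstimulated ACAT1 KO, 5.53 to 6.48 CPM in LPS WT and 11.3 to 13.0 CPM in LPS ACAT1 KO libraries. It rose with LPS as the members did. Between genotypes it was higher in ACAT1 KO cells after LPS (log2 fold change 0.99, adjusted p = 0.00247), where no member passed the adjusted threshold. Its interaction was 1.22, and 1.21 with the line as a block, past the adjusted threshold in both fits. Of the 2 T cell markers tested, the summed level was 5.24 to 6.96 CPM before and 9.95 to 11.1 CPM after LPS. The B cell marker Cd79a lay between 0.0305 and 0.938 CPM, and the 3 dendritic cell markers summed to 4.38 to 6.98 CPM. In 3 of the 6 unstimulated libraries, WT replicates 1 and 2 and ACAT1 KO replicate 2, the share of counts on noncoding genes within exons of the other strand was at least 0.543%, against at most 0.439% in the other 9. Because these are bulk samples, fewer cells with a transcript and less transcript per cell cannot be told apart.

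In the GRCm38 annotation Isg15 lies at chr4:156199424-156200818 on the minus strand, Uba7 at chr9:107975505-107984060, Ube2l6 at chr2:84798828-84810335 and Herc6 at chr6:57581000-57664632, these 3 on the plus strand. Parp12, on the minus strand at chr6:39086410-39118349, and Parp11, on the plus strand at chr6:127446840-127494261, share that chromosome. Parp10 lies at chr15:76231174-76243441 on the minus strand. Parp14, minus strand, chr16:35832874-35871544, is on the same chromosome as Dtx3l, minus strand, chr16:35926511-35939151, and Parp9, plus strand, chr16:35938470-35972605. The starts of Parp9 and Dtx3l are 681 bases apart, and the genes share 458 exon bases on opposite strands. The library kit marks strand, but whether the counting used it is not given in the sources used here, so reads of those bases may have been counted for either gene. The gene spans of Parp10 and Plec, on the same strand, also overlap. Those of Uba7, Herc6, Parp14 and Parp11 each overlap a predicted gene on their strand. Shared exon bases were not counted for these pairs.

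RefSeq windows of GRCm38.p6, from 250 bases before a gene's start, were held for 7 of the members, Isg15, Uba7, Ube2l6, Herc6, Parp12, Dtx3l and Parp11. They were searched on both strands for the core of the interferon-stimulated response element, ISRE, spelled GAAANNGAAA or TTTCNNTTTC. The core was in windows of 2 of these genes, Isg15 and Parp11, and in 3.44% of all 32851 promoter windows. The stretches before the start that hold it are shown for both genes, with the matching letters in capitals. The Isg15 stretch is at chr4:156200855-156200916 on the minus strand and the Parp11 stretch at chr6:127446776-127446825 on the plus strand.
Isg15: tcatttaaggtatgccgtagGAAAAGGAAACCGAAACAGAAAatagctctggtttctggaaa
Parp11: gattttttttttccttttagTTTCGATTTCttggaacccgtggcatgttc
Isg15 held 3 overlapping matches between 78 and 57 bases before its start, and Parp11 held 1, on the other strand, between 44 and 35 bases before. The gamma-activated site, GAS, spelled TTCNNNGAA, which reads the same on both strands, was in a window of Parp11, where it overlaps the ISRE core, and in 8.30% of all windows. A match of letters is not a measured binding site.

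LPS raised every member in both genotypes. By edgeR's quasi-likelihood test (Benjamini-Hochberg adjusted), all 10 rose in WT, where 29.3% of 16535 genes rose, and all 10 rose in ACAT1 KO cells, where 29.5% rose. Every LPS library lay above every unstimulated library of its genotype for all 10, against 31.4% of genes in WT and 33.2% in ACAT1 KO cells. The median log2 fold change of the 10 was 1.87 in WT and 2.30 in ACAT1 KO cells, and that of all genes was -0.018 and -0.026.

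**Figure D1:**
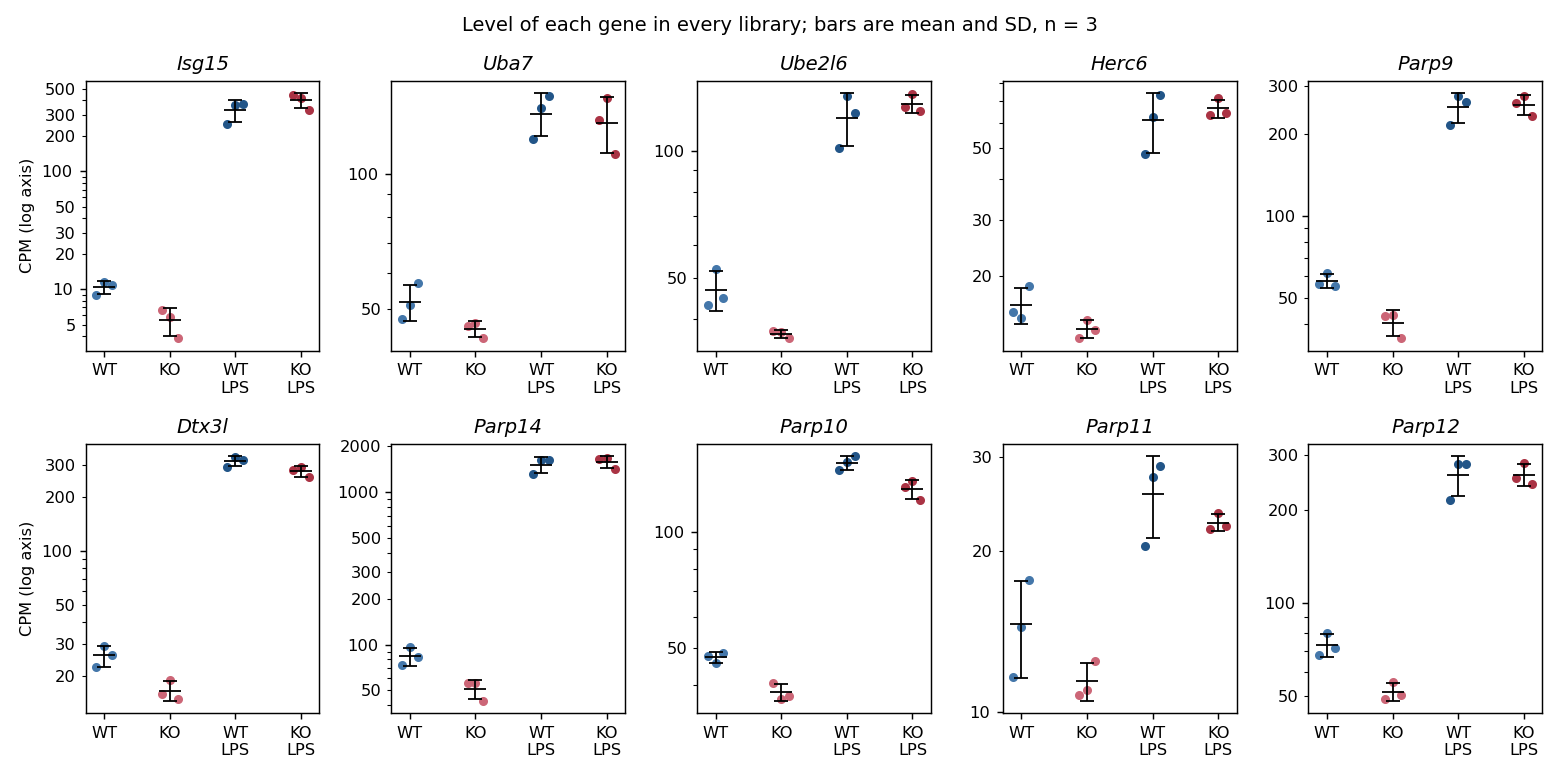
Level of each of the 10 genes in every library, in CPM on a log axis, for WT and ACAT1 KO cells without stimulation and after 2 h of LPS. Points are libraries and bars are the mean and SD of 3. All LPS libraries lie above all unstimulated libraries, and without stimulation the ACAT1 KO libraries lie below the WT libraries for 9 of the 10 genes, Parp11 being the exception.

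Isg15, the modifier itself, rose most. Its level was 8.93, 11.6 and 10.8 CPM in the unstimulated WT libraries and 251, 367 and 376 CPM after LPS. In ACAT1 KO cells it was 6.63, 5.82 and 3.82 CPM before and 446, 422 and 335 CPM after. The log2 fold change was 4.99 (standard error, SE, 0.235) in WT and 6.21 (SE 0.249) in ACAT1 KO cells, ranks 50 and 33 from the highest of all genes tested. LPS WT replicate 1 had the lowest Isg15 of the LPS libraries.

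The enzymes that pass ISG15 on rose less. Uba7, the activating enzyme, had 47.4, 50.9 and 56.9 CPM in unstimulated WT and 120, 140 and 149 CPM in LPS WT libraries. In ACAT1 KO cells it had 45.7, 46.5 and 42.9 CPM and then 132, 148 and 110 CPM, so the 2 genotypes overlapped after LPS. Its log2 fold change with LPS was 1.40 in WT and 1.53 in ACAT1 KO cells.

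Ube2l6, the conjugating enzyme, had 43.2, 52.6 and 44.8 CPM in unstimulated WT and 37.5, 37.3 and 36.0 CPM in unstimulated ACAT1 KO libraries. After LPS it had 102, 135 and 123 CPM in WT and 127, 136 and 124 CPM in ACAT1 KO libraries. The ACAT1 KO libraries were all below WT before LPS and overlapped with them after it, and the log2 fold change with LPS was 1.35 in WT and 1.80 in ACAT1 KO cells. Herc6, the ligase, had 15.4, 14.8 and 18.6 CPM in unstimulated WT and 12.8, 14.6 and 13.6 CPM in unstimulated ACAT1 KO libraries. With LPS it reached 47.8, 62.7 and 73.4 CPM in WT and 63.7, 71.5 and 64.4 CPM in ACAT1 KO libraries, log2 fold changes of 1.91 and 2.28.

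Among the PARPs and their partner, Parp14 rose most. This protein binds ADP-ribose and transfers single units of it. It had 73.4, 95.7 and 82.8 CPM in unstimulated WT and 1307, 1612 and 1619 CPM in LPS WT libraries, a log2 fold change of 4.17 (SE 0.150). In ACAT1 KO cells it went from 55.6, 55.8 and 42.5 CPM to 1647, 1680 and 1417 CPM, a log2 fold change of 4.95 (SE 0.156). Parp14 thus ranked 82 in WT and 71 in ACAT1 KO cells among all genes tested.

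Dtx3l and Parp9, whose products form a complex, differed in the size of their rise. Dtx3l had 22.5, 29.5 and 26.0 CPM in unstimulated WT and 294, 335 and 323 CPM in LPS WT libraries. In ACAT1 KO cells it had 15.8, 18.9 and 14.9 CPM and then 284, 295 and 257 CPM. The log2 fold change was 3.61 in WT and 4.07 in ACAT1 KO cells. Parp9 had 56.2, 61.7 and 55.1 CPM in unstimulated WT and 215, 275 and 261 CPM in LPS WT libraries. In ACAT1 KO cells it had 42.9, 43.0 and 35.4 CPM and then 259, 275 and 233 CPM. Its log2 fold change was 2.12 in WT and 2.66 in ACAT1 KO cells, below that of Dtx3l in both.

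The ratio of Dtx3l to Parp9 counts is given as a description, with no test, since it was chosen after these values were seen. It was 0.401, 0.479 and 0.473 in unstimulated WT, 0.369, 0.440 and 0.422 in unstimulated ACAT1 KO, 1.37, 1.22 and 1.24 in LPS WT and 1.10, 1.07 and 1.10 in LPS ACAT1 KO libraries. Every LPS library lay above every unstimulated one. The geometric mean of the ratio with LPS was 2.83 times that without in WT and 2.66 times in ACAT1 KO cells, and the 458 shared exon bases may be counted for either gene. After LPS the ACAT1 KO libraries lay below all WT libraries in this ratio, and the unstimulated ones overlapped.

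**Figure D2:**
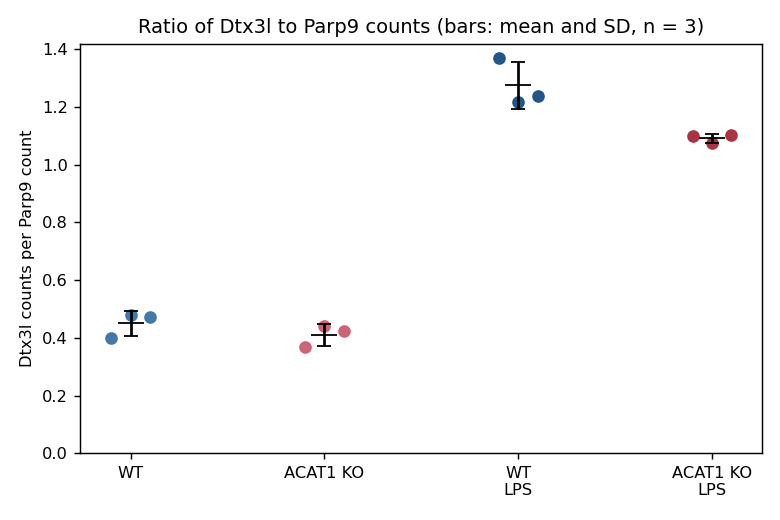
Dtx3l counts per Parp9 count in each of the 12 libraries by group, with the mean and SD of 3 as bars. The unstimulated libraries lie between 0.369 and 0.479 and the LPS libraries between 1.07 and 1.37.

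The other PARPs rose by smaller amounts. Parp12, a zinc-finger PARP of the antiviral response, had 68.0, 79.8 and 71.4 CPM in unstimulated WT and 49.1, 55.5 and 50.3 CPM in unstimulated ACAT1 KO libraries. After LPS it had 215, 282 and 282 CPM in WT and 253, 283 and 242 CPM in ACAT1 KO libraries. Its log2 fold change with LPS was 1.83 in WT and 2.33 in ACAT1 KO cells, and the genotypes overlapped only after LPS. Parp10, a mono-ADP-ribosyltransferase, had 47.4, 45.6 and 48.5 CPM in unstimulated WT and 40.4, 36.8 and 37.4 CPM in unstimulated ACAT1 KO libraries. With LPS it had 145, 152 and 157 CPM in WT and 131, 135 and 121 CPM in ACAT1 KO libraries, log2 fold changes of 1.68 and 1.75. The ACAT1 KO libraries were below WT in both states. Parp11, also a mono-ADP-ribosyltransferase, had 11.6, 14.4 and 17.7 CPM in unstimulated WT and between 10.8 and 12.5 CPM in the 3 unstimulated ACAT1 KO libraries. After LPS it had 20.5, 27.6 and 28.9 CPM in WT and 22.0, 23.6 and 22.3 CPM in ACAT1 KO libraries, log2 fold changes of 0.81 and 0.99, the smallest of the 10.

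Per kilobase of exon the order of levels changed with LPS. In unstimulated WT cells Ube2l6 was highest, at 23.5 ± 2.51 CPM per kb (SD, n = 3), followed by Parp12 at 18.3 ± 1.52 and Isg15 at 13.8 ± 1.81 CPM per kb. Isg15 overlapped with Parp9 next in order, Parp9 with Parp10, Parp14 with Uba7, and Parp11 with Herc6, the lowest at 1.75 ± 0.222 CPM per kb. In LPS WT cells Isg15 came first at 438 ± 91.6 CPM per kb and Parp14 second at 163 ± 19.2 CPM per kb, both clear of the next gene. Parp12, Ube2l6, Dtx3l and Parp9 followed, each overlapping with its neighbour, and Parp11 was last at 3.65 ± 0.641 CPM per kb. In ACAT1 KO cells Ube2l6 at 18.5 and Parp12 at 12.9 CPM per kb led without stimulation, and Isg15 at 530 and Parp14 at 170 CPM per kb led after LPS.

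Without stimulation every member had a negative log2 fold change between ACAT1 KO and WT cells, and 1 of them, Parp12, passed the adjusted threshold. The median was -0.42, against 0.0035 over all 16440 genes tested. By edgeR's quasi-likelihood test (Benjamini-Hochberg adjusted) Parp12 fell by 0.49 on the log2 scale (SE 0.0833, adjusted p = 0.0443), and 1.17% of all genes fell. At an unadjusted p under 0.05 the count was 7 of 10, with 9.93% of all genes lower at that threshold. For 9 of the 10 genes, all but Parp11, each ACAT1 KO library was lower than each WT library, which held for 13.3% of genes.

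Isg15 had the largest difference, a log2 fold change of -0.94 (SE 0.219, adjusted p = 0.0847). Parp14 followed at -0.70 (SE 0.137, adjusted p = 0.0591), Dtx3l at -0.64 (SE 0.131, adjusted p = 0.0656) and Parp9 at -0.50 (SE 0.0936, adjusted p = 0.0528). Ube2l6 at -0.33 and Parp10 at -0.30 had adjusted p of 0.0954 and 0.0655. Parp11 at -0.35, Herc6 at -0.24 and Uba7 at -0.19 did not pass at an unadjusted p either. The call of Parp12 was lost, and 0 members passed, when any 1 of the 6 libraries was left out. DESeq2 called 7 members, and 907 of 13854 genes were lower in that fit. A fit of all 12 libraries called 6 members, and 758 of 16535 genes were lower there. Within the libraries with the higher opposite-strand share, 2 WT and 1 ACAT1 KO, all 10 differences were negative with a median of -0.38, and within the other 3 all 10 were negative with a median of -0.51. Each of these comparisons has a single library in 1 arm, so neither has a spread or a test, and the libraries were set apart after the data were seen.

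**Figure D3:**
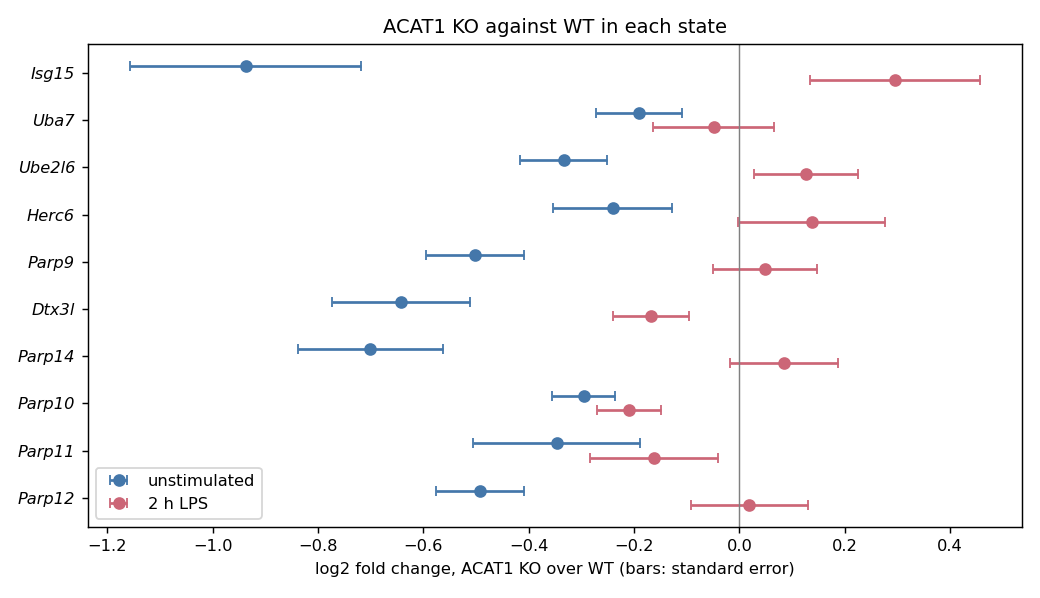
Log2 fold change of ACAT1 KO over WT cells for each of the 10 genes, without stimulation and after 2 h of LPS, with standard errors as bars. All 10 unstimulated values are below 0, from -0.94 to -0.19, and the LPS values run from -0.21 to 0.30.

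After LPS no member passed the adjusted threshold between the genotypes, by edgeR's quasi-likelihood test (Benjamini-Hochberg adjusted), while 5.93% of 16483 genes rose and 9.12% fell. At an unadjusted p under 0.05, 2 members were lower, Parp10 and Dtx3l, against 17.2% of genes. DESeq2 called 1, Parp10, and 1763 of 15202 genes were lower in that fit. The median of the 10 was 0.034, with 6 positive and 4 negative values, against -0.0041 over all genes. Parp10 had a log2 fold change of -0.21 (SE 0.0600, adjusted p = 0.0518) and was the 1 member whose ACAT1 KO libraries all lay below WT, as did 22.2% of genes. Isg15 had a log2 fold change of 0.30 (SE 0.162, adjusted p = 0.255). Without LPS WT replicate 1, 2 members passed, Parp10 at -0.24 and Parp11 at -0.30. The share of all genes in that fit is not reported here.

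The rise with LPS was then compared between the genotypes through the interaction, which uses the same 12 libraries. All 10 estimates were positive, meaning a larger fold rise in ACAT1 KO cells, with a median of 0.46 against -0.038 over all genes. By edgeR's quasi-likelihood test (Benjamini-Hochberg adjusted) none passed, and 0.0484% of 16535 genes passed with a positive estimate. At an unadjusted p under 0.05 there were 6, Isg15, Parp14, Parp9, Parp12, Ube2l6 and Dtx3l, against 3.28% of genes. DESeq2 called 3, and 140 of 12034 genes passed with a positive estimate in that fit. With the line as a replicate block, edgeR's quasi-likelihood test called those 6 members, against 0.835% of genes. The block pairs unstimulated and LPS libraries, a pairing inferred from the numbers in the labels.

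In that blocked fit the interaction of Isg15 was 1.25 (SE 0.119, adjusted p = 0.00421) and that of Parp14 was 0.78 (SE 0.0836, adjusted p = 0.00657). Parp9 at 0.55, Parp12 at 0.51, Dtx3l at 0.46 and Ube2l6 at 0.45 had adjusted p from 0.0281 to 0.0414. Herc6 at 0.38, Parp11 at 0.17, Uba7 at 0.12 and Parp10 at 0.074 did not pass. Line by line, Isg15 rose by 4.81, 4.98 and 5.11 on the log2 scale in WT and by 6.07, 6.18 and 6.45 in ACAT1 KO cells. For 7 members, these 6 and Herc6, every ACAT1 KO line rose more than every WT line, as did 6.89% of genes. These estimates join a lower unstimulated level in ACAT1 KO cells to LPS levels that overlap between genotypes. Isg15 was 5.42 ± 1.45 CPM (SD, n = 3) against 10.5 ± 1.37 CPM (SD, n = 3) before LPS, and 401 ± 58.6 CPM (SD, n = 3) against 331 ± 69.3 CPM (SD, n = 3) after it.

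**Figure D4:**
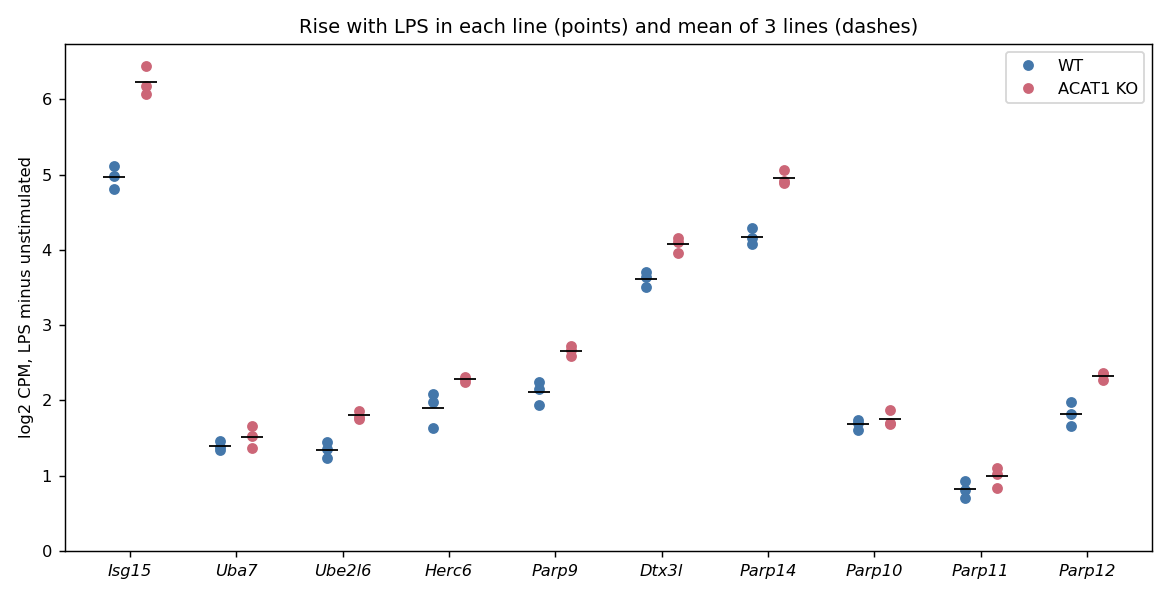
Rise with LPS, as log2 CPM after minus before, for each of the 3 lines of a genotype (points) and their mean (dashes). For Isg15 the WT lines lie between 4.81 and 5.11 and the ACAT1 KO lines between 6.07 and 6.45, and the lines of the genotypes overlap for Uba7, Parp10 and Parp11.

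The other genes of the ISG15 pathway included 1 that fell without stimulation. Of 12 tested, Usp18, the protease that removes ISG15, had 28.8, 45.6 and 34.7 CPM in unstimulated WT and 10.5, 12.7 and 8.83 CPM in unstimulated ACAT1 KO libraries. Its level was lower in each ACAT1 KO library than in each WT library. After LPS it had 291, 431 and 401 CPM in WT and 298, 361 and 294 CPM in ACAT1 KO libraries, which overlapped. Its interaction was 1.53 (adjusted p = 0.0533) and, with the line as a block, 1.53 (adjusted p = 0.00118). Trim25, a ubiquitin ligase that is also an ISG15 ligase, rose by 2.52 in WT and 3.05 in ACAT1 KO cells on the log2 scale, and had a log2 fold change of -0.49 (adjusted p = 0.0543) between genotypes without stimulation. With LPS 8 of the 12 rose and 2 fell in either genotype. Their median genotype difference without stimulation was -0.072.

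Of 11 other PARP family genes, none passed between genotypes without stimulation. Among LPS libraries 2 were lower in ACAT1 KO than in WT cells, Zc3hav1 by 0.23 (adjusted p = 0.0352) and Tnks by 0.23 (adjusted p = 0.0385) on the log2 scale. At an unadjusted p under 0.05, 2 were lower without stimulation, Zc3hav1 and Parp8. Zc3hav1, the antiviral zinc-finger protein that binds viral RNA, rose with LPS by 1.57 in WT and 1.56 in ACAT1 KO cells. Tiparp, a mono-ADP-ribosyltransferase, rose by 2.08 and 2.29. With LPS 6 of these genes rose and 3 fell in WT cells, and 5 rose and 3 fell in ACAT1 KO cells. None had an interaction past the adjusted threshold, nor at an unadjusted p under 0.05, with or without the block.

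Of 12 tested genes that remove or read ADP-ribose, none passed between genotypes without stimulation, and at an unadjusted p under 0.05, 2 were higher and 1 lower. Among LPS libraries Trpm2, an ADP-ribose gated channel, was lower in ACAT1 KO than in WT cells by 0.47 on the log2 scale (adjusted p = 0.00741). Nudt9, an ADP-ribose pyrophosphatase, was higher by 0.35 (adjusted p = 0.0169). Without stimulation the log2 fold change of Trpm2 between genotypes was -0.42 (edgeR's quasi-likelihood test, adjusted p = 0.0684). Of 3 Deltex genes tested beside Dtx3l, none passed between genotypes in either state, with 1 lower before and 1 higher after LPS at an unadjusted p under 0.05, and Dtx2 and Dtx4 rose with LPS while Dtx3 fell. Of 9 E1 enzymes of other modifiers, relatives of Uba7, 1 passed between genotypes after LPS, Mocs3, higher by 0.25 in ACAT1 KO cells. In WT cells 5 of the 9 rose and 4 fell with LPS.

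Of 9 tested genes of the interferon receptor and its factors, Stat2 fell by 1.15 on the log2 scale in unstimulated ACAT1 KO cells (adjusted p = 0.0344), and 5 were lower at an unadjusted p under 0.05. Irf9, which joins Stat2 in the factor that binds the ISRE, had a log2 fold change of -0.35 (adjusted p = 0.168). Of 10 tested among LPS libraries, Ifnb1, which encodes interferon beta, was higher in ACAT1 KO than in WT cells by 1.27 (adjusted p = 0.0312). Ifnar1, a chain of its receptor, was lower by 0.28 (adjusted p = 0.0197). The interaction passed for 4 of the 9 with the line as a block and for none without it.

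The genes most like the 10 members over the 12 libraries, by Pearson's r of log2 CPM with the members' mean standardised level, were Trim12c (r = 0.999), Irgm2 (r = 0.998), Cmpk2 (r = 0.998), Irgm1 (r = 0.998) and Adar (r = 0.998), of 16525 genes. These libraries share the contrast of LPS. Within the 6 unstimulated libraries they were Zfp280d, Ssbp2, Mphosph9, Ddx60 and Epsti1 (r from 0.988 to 0.993), and within the 6 LPS libraries Irf2, Gvin-ps7, Mx2, Virma and Lnpep (r from 0.993 to 0.999). The members themselves ranged from 0.772 for Parp11 to 0.969 for Dtx3l without stimulation and from 0.469 for Parp10 to 0.977 for Parp12 after LPS. Each member is part of the mean it was compared with, which raises its r, and the other genes are not. Each set of 6 libraries holds both genotypes, and the named genes are the highest of 16525. Such a pick over 6 libraries favours a high r by itself, and no test was run.

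Genes within 1 Mb of each member were compared with it, the members left out. Without stimulation the median log2 fold change of the neighbours, 13 to 68 for each member, ranged from -0.093 near Parp12 to 0.17 near Parp14, where the members themselves ranged from -0.94 to -0.19. Of these neighbours 1 near Ube2l6 and 1 near Parp11 fell. After LPS more neighbours passed between genotypes, and so did more of all genes. Over all genes tested 9.12% fell and 5.93% rose, against 1.17% and 0.742% without stimulation. Near Parp10, 10 of 65 fell and 2 rose, near Parp12 8 of 31 fell, and near Parp11 4 of 29 fell. On chromosome 16, 5 rose near each of Parp9, Dtx3l and Parp14, whose windows overlap. Near the other 4 members at most 2 fell and at most 3 rose.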

How the data were processed

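RNA-seq of 12 libraries was analysed, grouped by the genotype, treatment and number in their labels. The authors' pipeline used Trimmomatic 0.33 for trimming, HISAT2 for alignment to GRCm38 and StringTie for quantification. The deposited tables, 1 for each state, hold raw counts per gene as whole numbers. Those tables also hold 12 columns of log2 values per library and the authors' fold changes and p-values, which were not used. Repeated entries of a gene (59 and 57, with identical counts) were removed.

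Counts were tested with edgeR 4.0.16 in R 4.3.3 (filterByExpr, TMM, quasi-likelihood test, two-sided, Benjamini-Hochberg adjustment over all genes tested, threshold 0.05). Genotypes were compared within each state over 6 libraries, and LPS and the interaction were tested over all 12 and the 16699 genes of both tables. CPM are from TMM over the 12 libraries, and log2 CPM used a prior count of 2. The fits were tested on simulated data. DESeq2 1.42.0, other normalizations, no filter, other sets of libraries, a replicate block and each library left out were tried.

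Deviations from group means of unstimulated and LPS libraries with the same number correlated from 0.139 to 0.454 in 6 pairs over 11961 genes. Those with other numbers correlated from -0.344 to 0.0976, but deviations within a group sum to 0, so these ranges are not independent. Same-numbered WT and ACAT1 KO libraries, which are different lines, ranged from -0.412 to 0.745. The number was taken to pair lines as an assumption that these correlations do not establish. The labels do not state this pairing, and the replicate block of lines rests on it.

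All members were named, with at most 5 genes of a list per comparison by smallest p, and Usp18, Trim25, Tiparp and Zc3hav1 in any case, of which the text gives a part. Members and lists were chosen with earlier results of these data known. Intervals of single libraries were not computed, since at these depths the spread between lines exceeds counting error. Some genes of the lists are not reported here.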

Additional observations from a re-analysis of the deposited data

Results flagged for a closer look

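The rise with LPS differed between genotypes for 6 members by the interaction test of edgeR's quasi-likelihood fit with the line as a replicate block and Benjamini-Hochberg adjustment, and for none of the 10 without that block. The estimates on the log2 scale were 1.25 for Isg15, 0.78 for Parp14, 0.55 for Parp9, 0.51 for Parp12, 0.46 for Dtx3l and 0.45 for Ube2l6, all larger in ACAT1 KO cells, and every ACAT1 KO line rose more than every WT line for each of these 6. With the block and a term for the 3 libraries of higher opposite-strand share, chosen after the data were seen, 6 passed. In that fit 200 of 16535 genes passed with a positive estimate. Samples far from the rest of a group were not looked for, because each group has 3 libraries.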

How the results depend on the processing

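All 10 members rose with LPS in both genotypes under every alternative run. Upper-quartile normalization lowered the log2 fold changes of the members with LPS by a median that was -0.21 in WT and -0.15 in ACAT1 KO cells, and moved the calls over all genes from 4850 higher and 4638 lower to 3628 and 6681 in WT, and from 4871 and 5166 to 3921 and 6560 in ACAT1 KO cells. It moved the interaction calls from 8 higher and 23 lower to 10 and 13. The members that passed between unstimulated genotypes numbered 1, against 7 with DESeq2, 6 with all 12 libraries in a single fit, 2 with upper-quartile normalization, 2 with the replicate number as a block, and 5 with a term for the 3 libraries of higher opposite-strand share, chosen after the data were seen. It was 0 in each fit that left out a library. Between genotypes after LPS 0 passed, against 1 with DESeq2, 1 with all 12 libraries, and 0 to 2 with a library left out. For the interaction 0 passed, against 3 with DESeq2, 6 with the replicate block and 6 with the block and the term for those 3 libraries. No member passed the interaction with that term and no block, nor in any fit that left out a library. The cause was not tested. Over all genes DESeq2 called 814 higher and 907 lower of 13854 between unstimulated genotypes, against 122 and 192 of 16440. For the interaction it called 140 and 194 of 12034, where the replicate block gave 138 and 150 of 16535. A single fit of 12 libraries called 595 and 758 of 16535 without stimulation, and the number as a block 33 and 118 of 16440. Upper-quartile normalization gave 100 and 206 there, and the term for the 3 libraries 288 and 376. Between genotypes after LPS 977 were higher and 1504 lower, against 1315 and 1763 with DESeq2 and 650 and 1527 with all 12 libraries. The interaction had 200 and 257 with the block and that term. Such counts are not reported here for the fits that left out a library. Same-numbered WT and ACAT1 KO libraries had correlations from -0.412 to 0.745 and were not taken as pairs.

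No member changed direction between unstimulated genotypes or in the interaction. After LPS 5 uncalled members did. Parp12 was -0.0016 with all 12 libraries. With a library left out Uba7 ranged from -0.15 to 0.059, Herc6 from -0.014 to 0.30, Parp9 from -0.050 to 0.12, Parp14 from -0.012 to 0.16 and Parp12 from -0.10 to 0.092.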
